A study of Mus musculus with 46 samples.

Results

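Peg3, Usp29 and Zim1 are 3 neighbouring genes of the Peg3 imprinted domain on mouse chromosome 7, and they were taken by name out of the 15499 genes measured in the dorsal raphe nucleus of F1 hybrid mice. Their Ensembl identifiers were ENSMUSG00000002265, ENSMUSG00000051527 and ENSMUSG00000002266, and all 3 were held by the deposited tables and passed every filter on low counts. Total RNA was sequenced from 46 samples of female hybrids of C57 and CAST, bred in reciprocal crosses that the labels call F1i and F1r. At P5 (postnatal day 5) there were 7 F1i and 7 F1r samples, at P15 (postnatal day 15) there were 7 F1i and 7 F1r samples, and among adults there were 9 F1i and 9 F1r samples. Every sample was an untreated hybrid that carries 1 allele of each strain, and the parent that gave each strain's allele is not named by the labels for either cross. The labels do not state that each sample came from a separate animal, so the p-values measure the spread between these samples, which may be technical.

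An imprinted gene is read mainly from the allele of 1 parent, and reciprocal crosses separate that parent from the strain of the allele. As background, Peg3 encodes a large zinc finger protein of the nucleus and Usp29 encodes a protein of the ubiquitin-specific protease family, and both are known in the mouse as genes expressed from the paternal allele. Their starts lie beside each other at a CpG-rich control region whose maternal allele is methylated in the egg. Zim1 encodes another zinc finger protein and is known in the mouse as a maternally expressed gene of the same domain. Loss of the paternal Peg3 allele in mice is known for effects on growth and maternal behaviour, and the brain is one of the tissues in which Peg3 is abundant.

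The promoter windows of the 3 genes are shown because Peg3 and Usp29 start so close together that they share most of their promoter. Each window runs from 250 bases before to 50 bases after the start in RefSeq on GRCm38.p6, and is written 5′ to 3′ on the strand of its gene. Peg3 lies on the minus strand at chr7:6730370-6730669, Usp29 on the plus strand at chr7:6730333-6730632 and Zim1 on the minus strand at chr7:6696383-6696682. Capitals mark matches, on either strand, to TGACGTCA, the cyclic AMP response element, and to the CCAAT box.
Peg3: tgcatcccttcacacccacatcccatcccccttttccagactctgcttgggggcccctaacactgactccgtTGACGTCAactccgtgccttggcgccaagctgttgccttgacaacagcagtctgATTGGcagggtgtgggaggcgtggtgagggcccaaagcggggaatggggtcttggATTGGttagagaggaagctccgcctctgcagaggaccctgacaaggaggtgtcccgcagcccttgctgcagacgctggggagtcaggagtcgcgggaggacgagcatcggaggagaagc
Usp29: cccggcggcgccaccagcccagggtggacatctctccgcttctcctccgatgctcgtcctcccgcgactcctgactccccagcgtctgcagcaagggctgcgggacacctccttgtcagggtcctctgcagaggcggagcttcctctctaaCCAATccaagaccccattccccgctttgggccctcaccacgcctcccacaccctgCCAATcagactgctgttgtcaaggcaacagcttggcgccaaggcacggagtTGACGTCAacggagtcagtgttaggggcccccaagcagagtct
Zim1: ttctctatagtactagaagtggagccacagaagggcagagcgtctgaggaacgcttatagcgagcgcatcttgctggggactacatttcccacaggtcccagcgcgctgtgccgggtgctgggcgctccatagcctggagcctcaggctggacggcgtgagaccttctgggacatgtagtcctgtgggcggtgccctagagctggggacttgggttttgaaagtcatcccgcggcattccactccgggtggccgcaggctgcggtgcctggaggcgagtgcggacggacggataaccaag

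The starts of Peg3 and Usp29 are 164 bases apart and point away from each other, and 263 bases of their windows are the same DNA read on opposite strands. The single TGACGTCA and the 2 CCAAT matches lie in that shared stretch, 178, 124 and 69 bases before the Peg3 start. Read from Usp29, the CCAAT matches begin 99 and 44 bases before its start and the TGACGTCA match begins at base 8 after it. The Zim1 window holds neither motif. Among 32851 windows of the same length, 1.79% hold TGACGTCA and 37.41% hold CCAAT. The YY1 core CCATNTT, found in 16.08% of windows, and TATAAA, found in 13.62%, occur in no member's window, which says only that these letters are not in these 300 bases. All 4 motifs were chosen after the sequences had been seen, and a match is not a measured binding site. The windows held 13 CpG pairs for Peg3, 17 for Usp29 and 20 for Zim1, against a median of 7 over all windows. At least as many pairs were found in 37.9%, 31.4% and 26.5% of all windows.

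The libraries held between 3692778 and 13085952 allele-assigned counts. The CAST allele supplied 51.2% to 52.2% of them in the F1i libraries and 50.1% to 50.7% in the F1r libraries. The main allele models kept this difference between the crosses. The tissue label was checked on genes of serotonin neurons. Tph2, the neuronal enzyme of serotonin synthesis, was between 81.4 and 134 CPM (counts scaled by library total and TMM factor) at P5, between 397 and 777 CPM at P15 and between 459 and 694 CPM in adults. Fev, a transcription factor of serotonin neurons, was above 0 in every sample, with a lowest value of 15.6 CPM. Levels are not compared between genes here, because the tables count reads over bases that differ between the strains, without a gene length.

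The 2 genes of the shared promoter were read almost wholly from the C57 allele in F1i and from the CAST allele in F1r, and Zim1 was read the opposite way. At P5 the CAST share of Peg3 counts was between 0.101% and 0.293% in the 7 F1i samples and between 98.6% and 99.9% in the 7 F1r samples. At P15 it was between 0.124% and 0.530% in F1i and between 95.6% and 99.8% in F1r. In adults it was between 0.0546% and 0.146% in F1i and between 97.2% and 99.9% in F1r. No F1i sample came near any F1r sample at any age. These shares rest on 6184 to 24775 Peg3 counts per sample.

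Usp29 followed Peg3 at about the same shares on far fewer counts, between 340 and 1517 per sample. Its CAST share at P5 was between 0 and 0.648% in F1i and 99.1% or more in F1r. In 3 of the 7 F1i samples at P5 there was no CAST count, and the sample with the most counts among them, with 561, allows a share of up to 0.535%. At P15 the CAST share was between 0.140% and 0.908% in F1i and between 95.3% and 99.7% in F1r, and in adults between 0 and 0.740% in F1i and between 97.4% and 99.8% in F1r.

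Zim1 came mostly from CAST in F1i and from C57 in F1r, and less completely so than the other 2 genes. Its CAST share was between 91.7% and 94.7% in F1i and between 3.57% and 7.41% in F1r at P5. At P15 it was between 96.0% and 98.2% in F1i and between 2.16% and 4.26% in F1r. Adults had between 96.0% and 98.7% in F1i and between 1.54% and 3.51% in F1r. The groups were apart at every age, with 276 to 1000 Zim1 counts per sample.

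**Figure D1:**
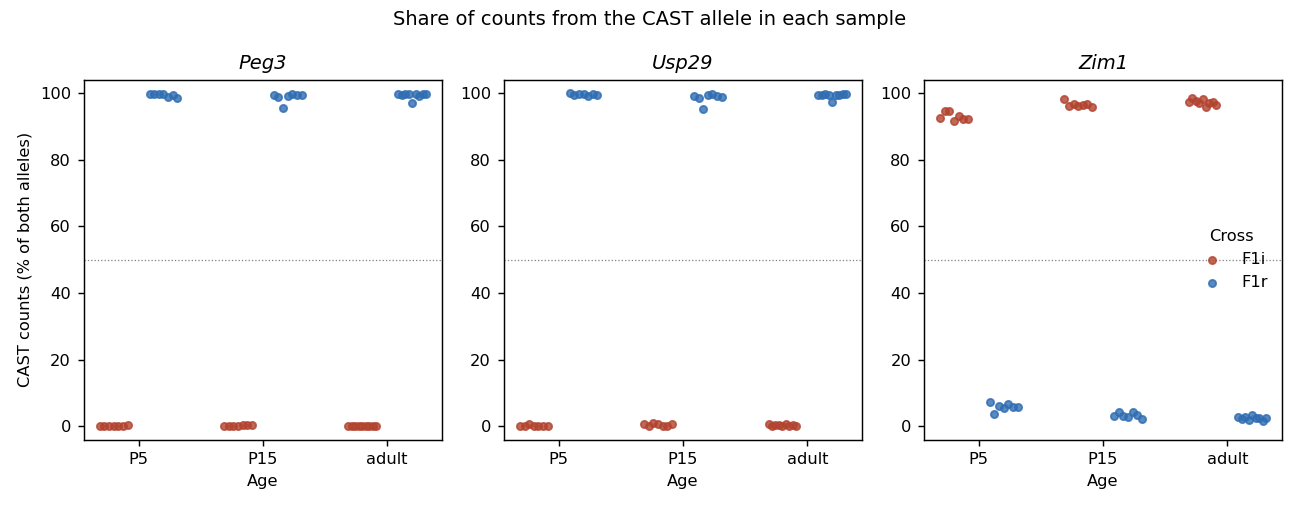
Share of counts from the CAST allele (% of both alleles, y axis) for each gene in each sample, by age (x axis), with F1i in red left of F1r in blue. Peg3 and Usp29 lie near 0 in F1i and near 100 in F1r, and Zim1 lies between 91.7% and 98.7% in F1i and between 1.54% and 7.41% in F1r.

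The parental effect is the log2 ratio of CAST to C57 counts in F1i minus the same in F1r, divided by 2. It is positive where CAST counts are higher in F1i than in F1r, and a call means an adjusted p under 0.05 in edgeR's quasi-likelihood test with Benjamini-Hochberg adjustment over all genes tested. Over all genes tested, 2.71% were called at P5, 0.742% at P15 and 2.71% in adults, and all 3 members were called at every age. For Peg3 the effect was -8.21 ± 0.17 at P5 (SE, adjusted p 5.57e-59), -7.54 ± 0.24 at P15 (adjusted p 4.58e-41) and -8.90 ± 0.35 in adults (adjusted p 6.19e-34). For Usp29 it was -8.51 ± 0.35 at P5 (adjusted p 1.56e-52), -6.84 ± 0.24 at P15 (adjusted p 1.55e-45) and -7.82 ± 0.22 in adults (adjusted p 4.23e-42).

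On a linear scale the 2 alleles of Peg3 differed, averaged over the crosses, 296-fold at P5, 186-fold at P15 and 478-fold in adults. By the size of the effect, whatever its sign, Peg3 ranked 8 among 12070 genes at P5, 4 among 11996 at P15 and 2 among 12675 in adults. Zim1 had an effect of 3.88 ± 0.06 at P5 (adjusted p 1.52e-50), 4.86 ± 0.10 at P15 (adjusted p 2.58e-48) and 5.18 ± 0.09 in adults (adjusted p 6.81e-42), or 14.7-fold, 29.1-fold and 36.4-fold. It ranked 34 at P5, 27 at P15 and 29 in adults. The median over all genes tested was 0.00 at each age. The sign of all 9 effects and their call were kept under every alternative run.

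Other imprinted genes of these libraries give the scale. Of the genes listed as maternally expressed, 15 of 15 tested were called positive at P5 (median effect 2.10), 13 of 14 at P15 (median 1.78) and 12 of 13 in adults (median 1.59). The exception at both later ages was Osbpl5, with 0.12 at P15 and 0.08 in adults. Of the genes listed as paternally expressed, 15 of 17 tested were called negative at P5 (median -4.66), 16 of 18 at P15 (median -5.25) and 17 of 18 in adults (median -5.96). Igf2, a growth factor, was called positive at all 3 ages, and Rtl1 at P15 as well. Meg3, a maternally expressed long noncoding RNA, had 8.24 at P5, and Peg10, a paternally expressed gene derived from a retrotransposon, had -8.21.

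The counts from the lower allele, which is CAST for Peg3 and Usp29 in F1i and C57 in F1r, were few. Their mean share was higher in F1r than in F1i at every age. The lower allele is of a different strain in each cross, so an effect of the cross and one of the strain cannot be told apart here. For Peg3 at P5 the lower allele gave a lowest, median and highest share of 0.101%, 0.176% and 0.293% in F1i, and of 0.106%, 0.313% and 1.39% in F1r. At P15 the values were 0.124%, 0.229% and 0.530% in F1i, and 0.215%, 0.458% and 4.37% in F1r. Adults had 0.0546%, 0.0998% and 0.146% in F1i, and 0.0878%, 0.132% and 2.80% in F1r. The ranges overlapped at every age, and the highest values were all in F1r.

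The mean share of the lower Peg3 allele was 0.182% ± 0.065 in F1i and 0.543% ± 0.481 in F1r at P5 (SD, n = 7 each; two-sided exact permutation test, p = 0.0408). At P15 it was 0.263% ± 0.136 in F1i and 1.08% ± 1.47 in F1r (n = 7 each; exact permutation p = 0.0233). In adults it was 0.101% ± 0.034 in F1i and 0.563% ± 0.887 in F1r (n = 9 each; exact permutation p = 0.0388), and p was 0.0273 when samples were exchanged only within the second label number, on which adult samples pair. These were 3 of 9 such comparisons and the p-values are not adjusted. The smallest p this test can give is 0.000583 with 7 and 7 samples and 4.11e-05 with 9 and 9, each sample taken as independent. Adult samples of a cross also share first label numbers, and the shares were not tested over these. The difference between the crosses rested on few samples: without sample 3 of P15 F1r it was -0.27 percentage points in place of -0.819 (exact permutation p = 0.039), and without sample 6_2 of adult F1r it was -0.183 in place of -0.462 (exact permutation p = 0.0439). Without sample 7 of P5 F1r it was -0.22 in place of -0.361 (exact permutation p = 0.0594). Leaving out any single F1i sample gave p-values between 0.0565 and 0.101 at P5 and between 0.0988 and 0.115 in adults, and at P15 leaving out 6 of the 7 F1i samples in turn gave 0.0769 to 0.106. In adult F1r the highest shares were 0.655%, 2.80% and 0.882%, in samples 5_2, 6_2 and 7_1. These were the smallest libraries of that group, at 6428656, 7019584 and 7838173 counts. The other adult F1r libraries held 10285890 counts or more and had shares of 0.218% or less. The smallest adult F1i libraries, samples 1_2, 2_2 and 3_2, had shares of 0.119%, 0.0696% and 0.0998%. The part of library size was not tested.

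Usp29 had the same order of means with more counting error. Its lower allele gave 0.179% ± 0.231 in F1i and 0.346% ± 0.301 in F1r at P5 (exact permutation p = 0.284), 0.495% ± 0.325 in F1i and 1.40% ± 1.52 in F1r at P15 (exact permutation p = 0.0577), and 0.330% ± 0.238 in F1i and 0.646% ± 0.742 in F1r in adults (exact permutation p = 0.231). None of these passed 0.05 over all samples, and only 0 to 28 counts per sample lay behind them. At P15 the difference passed without sample 4, 5 or 6 of F1r (exact permutation p = 0.0338, 0.014 and 0.0385). It was -0.344 percentage points in place of -0.901 without sample 3 of P15 F1r, -0.073 in place of -0.316 without sample 6_2 of adult F1r and -0.072 in place of -0.167 without sample 5 of P5 F1r. For Zim1, whose lower allele is C57 in F1i and CAST in F1r, the shares were 6.94% ± 1.15 in F1i and 5.77% ± 1.18 in F1r at P5 (exact permutation p = 0.0839). They were 3.36% ± 0.75 in F1i and 3.32% ± 0.74 in F1r at P15 (exact permutation p = 0.934), and 2.71% ± 0.81 in F1i and 2.49% ± 0.59 in F1r in adults (exact permutation p = 0.516).

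The samples with the most counts from the lower Peg3 allele were the same for Usp29 in F1r. At each age the 2 F1r samples with the highest Peg3 share also had the 2 highest Usp29 shares, and in F1i this held for 1, 0 and 1 of the 2 samples at P5, P15 and in adults. Few counts set these Usp29 ranks. In F1r the second-highest share was 3 of 632 counts at P5, ahead of 2 of 436, and 5 of 782 in adults, ahead of 7 of 1338. Sample 3 of P15 F1r had 492 of 11259 Peg3 counts from C57, a share of 4.37% (95% Wilson interval, counting error only, 4.01% to 4.76%), and 28 of 591 Usp29 counts, a share of 4.74% (3.30% to 6.76%). The other P15 F1r samples reached at most 1.03% for Peg3 and 1.49% for Usp29. Sample 6_2 of adult F1r had 316 of 11295 Peg3 counts from C57, a share of 2.80% (2.51% to 3.12%), and 16 of 617 Usp29 counts, a share of 2.59% (1.60% to 4.17%). The other adult F1r samples reached at most 0.882% for Peg3 and 0.639% for Usp29.

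**Figure D2:**
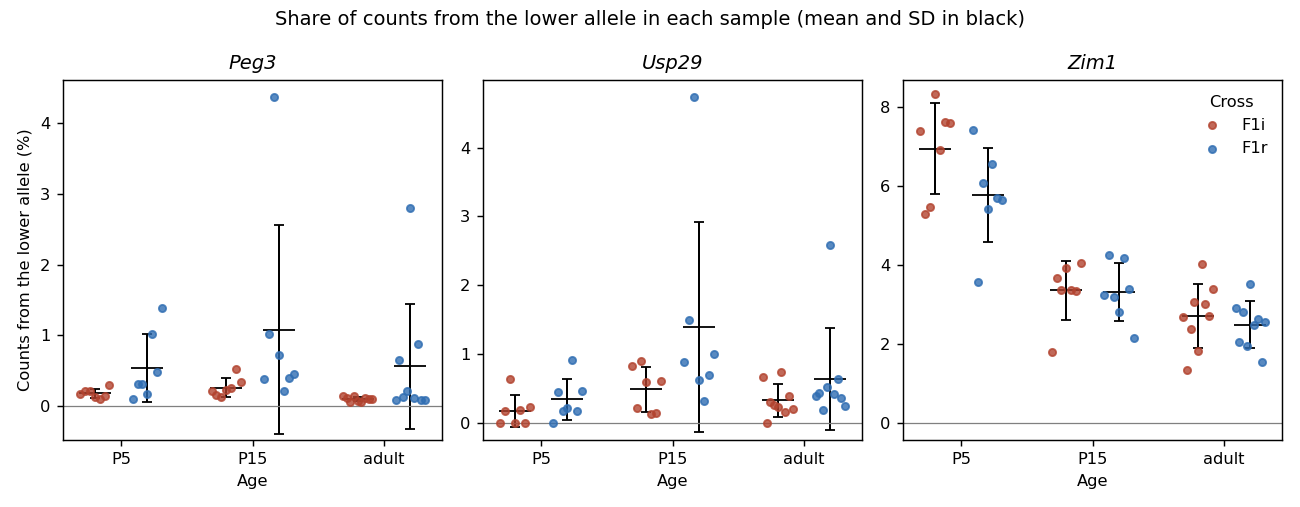
Share of counts from the lower allele (%, y axis, a separate scale for each gene) in each sample, by age (x axis), F1i in red left of F1r in blue, with the mean and SD in black. Single F1r samples stand at 4.37% for Peg3 and 4.74% for Usp29 at P15 and at 2.80% and 2.59% in adults, and Zim1 shares are higher at P5 than later.

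Other imprinted genes were read in the same 2 samples, among those with a mean of 100 or more counts and a called parental effect of at least 3 in size. In sample 3 of P15 F1r the share of the lower allele was the highest of its group for 3 of 11 such genes, and in sample 6_2 of adult F1r for 4 of 13. The samples with the highest Peg3 share in the other groups gave 0 of 16 in P5 F1i, 3 of 15 in P5 F1r, 1 of 11 in P15 F1i and 2 of 13 in adult F1i. In the adult F1r sample these included Meg3, with 0.559% against 0.0501% to 0.114% in the other samples, and Zdbf2, with 8.09% against 0.771% to 7.25%. In the P15 F1r sample they included Plagl1, with 4.07% against 0.295% to 3.35%. Zim1 ranked 5 of 7 in the P15 sample and 1 of 9 in the adult sample, at 3.19% and 3.51%. What sets these 2 samples apart was not tested.

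The strain effect, the mean over both crosses of the log2 CAST to C57 ratio, rests for these genes on the same few counts of the lower allele. Over all genes tested 58.4% were called at P5, 58.4% at P15 and 67.8% in adults. Peg3 was called towards C57 at all 3 ages, with -0.80 ± 0.17 at P5 (SE, adjusted p 2.7e-05), -0.99 ± 0.24 at P15 (adjusted p 0.000113) and -0.99 ± 0.35 in adults (adjusted p 0.0054). Usp29 was called at P15, with -0.73 ± 0.24 (adjusted p 0.00433), and had -0.45 ± 0.35 at P5 and -0.31 ± 0.22 in adults (adjusted p 0.222 and 0.182). Zim1 was called at P5, with -0.15 ± 0.06 (adjusted p 0.042), and had -0.06 ± 0.10 at P15 and -0.12 ± 0.09 in adults.

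These calls are weaker than those of the parental effect. For Peg3 at P5 the adjusted p was 0.0562 with DESeq2 and 0.061 with limma, and in adults 0.0511 with limma. Without sample 3 of P15 F1r the Peg3 effect was -0.45 (adjusted p 0.000347), without sample 6_2 of adult F1r -0.56 (adjusted p 0.0135) and without sample 7 of P5 F1r -0.53 (adjusted p 0.000776). The Usp29 call at P15 was lost with DESeq2 (adjusted p 0.124), with limma (adjusted p 0.063) and without sample 3 of P15 F1r, where the value was -0.35 (adjusted p 0.125). The Zim1 call at P5 was lost with DESeq2 (adjusted p 0.243), with limma (adjusted p 0.122) and in 9 of the 14 fits that left out a sample.

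From P5 to P15 Peg3 and Usp29 rose and Zim1 fell, and in adults Peg3 and Zim1 were lower than at P15. Peg3 was between 1130 and 1250 CPM in the 14 samples at P5, between 1558 and 2141 CPM at P15 and between 1417 and 1973 CPM in adults, with medians of 1188, 1960 and 1759 CPM. Every P15 sample was above every P5 sample, and the ranges of P15 and adult samples overlapped. Usp29 was between 77.2 and 97.7 CPM at P5, between 74.5 and 146 CPM at P15 and between 81.3 and 120 CPM in adults, so its ranges overlapped at all ages. Zim1 was between 98.0 and 124 CPM at P5, between 68.9 and 102 CPM at P15 and between 44.3 and 65.7 CPM in adults. Its adult samples were all below its P15 samples, which overlapped only slightly with P5.

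From P5 to P15, Peg3 rose by 0.69 ± 0.04 on the log2 scale (SE, adjusted p 8.96e-20), 1.62-fold, and Usp29 by 0.33 ± 0.06 (adjusted p 1.03e-05), 1.26-fold, whereas Zim1 fell by 0.38 ± 0.05 (adjusted p 2.63e-09), 1.30-fold. Of all genes tested 83.4% were called in this comparison, and the median over all genes was 0.02. Between adults and P15, Zim1 fell by 0.61 ± 0.05 (adjusted p 5.7e-16) and Peg3 by 0.16 ± 0.04 (adjusted p 0.000721), while Usp29 was at -0.09 ± 0.06 (adjusted p 0.172). Here 74.7% of all genes were called and the median was -0.01. These calls were the same in every alternative run.

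The P15 samples labelled 1 had the lowest level of Peg3 and Usp29 in both crosses. Sample 1 of F1i was at 1558 CPM for Peg3 and 84.9 CPM for Usp29, and sample 1 of F1r at 1625 and 74.5 CPM. Over many genes the levels of these 2 samples deviated together from their group means, with a correlation of 0.765. The same 2 samples had the highest summed astrocyte markers at P15, at 7095 CPM in F1i and 6900 CPM in F1r, over 6 of 7 listed markers held. They also had the 2 lowest sums of the 6 endothelial and mural markers, at 287.9 CPM in F1i and 334.1 CPM in F1r. The F1i sample had the lowest mature oligodendrocyte sum, at 18040 CPM, but the F1r sample was at 23120 CPM and ranked 9 of 14 from the highest. The part of these cell types in the low levels was not tested.

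**Figure D3:**
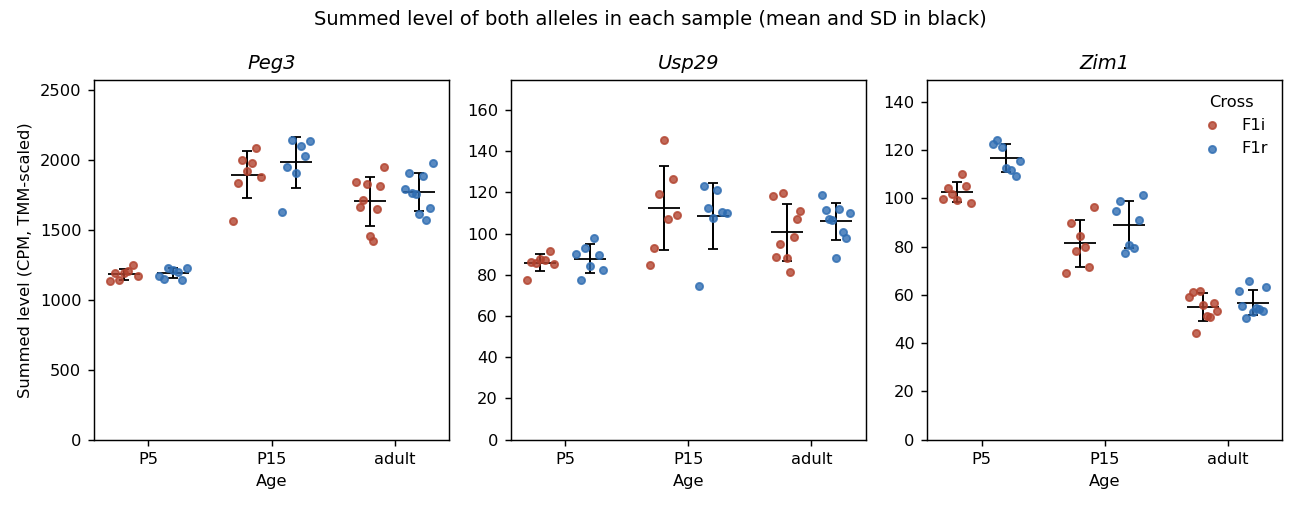
Summed level of both alleles in TMM-scaled CPM (y axis, from 0, a separate scale for each gene) in each sample, by age (x axis), F1i in red left of F1r in blue, with the mean and SD in black. The median of Peg3 is highest at P15, Zim1 is lower at each later age, and at P5 all but 1 of the F1i samples lie below every F1r sample for Zim1.

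The tissue is bulk, so that fewer cells of a type and less RNA per cell cannot be told apart, and marker genes of several cell types changed with age. From P5 to P15, 83.4% of all genes tested were called in either direction. All 7 mature oligodendrocyte markers held, of 8 listed, were called higher at P15 than at P5, with summed levels of 18040 to 32080 CPM at P15 and 1801 to 3028 CPM at P5. All 4 immature neuron markers held, of 5 listed, were called lower, with summed levels of 444 to 514 CPM at P15 and 3503 to 4275 CPM at P5. No marker of these lists was at 0 in any group. Their part in the age changes of the members was not tested.

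The level of Zim1 differed between the crosses at P5. Zim1 was at 98.0, 99.3, 99.7, 101.7, 104.3, 104.9 and 109.9 CPM in the F1i samples and at 109.3, 111.7, 112.6, 115.4, 121.1, 122.4 and 124.2 CPM in the F1r samples. The mean was 102.5 ± 4.1 CPM in F1i and 116.7 ± 5.9 CPM in F1r, and the groups overlapped by 1 sample each. The log2 ratio of F1i to F1r was -0.19 ± 0.04 (SE, adjusted p 0.00216), 1.14-fold lower in F1i, and 1.17% of all genes tested were called. The call was kept in every alternative run, with values between -0.21 and -0.17.

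That difference lay in the higher allele, which gave 95.4 ± 4.4 CPM from CAST in F1i and 110.0 ± 6.0 CPM from C57 in F1r (SD, n = 7 each). A difference between the crosses and one between the strains of the higher allele cannot be told apart here. The lower allele gave 7.10 ± 1.12 CPM from C57 in F1i and 6.72 ± 1.43 CPM from CAST in F1r. Markers of cell types differed between the same groups: 7 of 7 mature oligodendrocyte markers tested were called lower in F1i, with sums of 1801 to 2142 CPM in F1i and 2425 to 3028 CPM in F1r. Of the immature neuron markers, 3 of 4 tested were called higher in F1i, with sums of 3954 to 4275 CPM in F1i and 3503 to 3928 CPM in F1r. Of 9 serotonergic neuron markers tested, 3 were called lower in F1i, with sums of 458.1 to 558 CPM in F1i and 484.2 to 669.1 CPM in F1r. Their part in the Zim1 difference was not tested.

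Peg3 and Usp29 were not called between the crosses at P5. Peg3 was at 1181 ± 40 CPM in F1i and 1187 ± 35 CPM in F1r, with a log2 ratio of -0.00 (95% interval -0.05 to 0.04), and Usp29 was at 85.9 ± 4.3 CPM in F1i and 87.8 ± 6.9 CPM in F1r, with -0.03 (-0.12 to 0.05). At P15 no member was called by edgeR or DESeq2, and 0 of 3 had an unadjusted p under 0.05, with 0.0467% of all genes called. The P15 log2 ratios were -0.07 (-0.21 to 0.07) for Peg3, 0.04 (-0.18 to 0.27) for Usp29 and -0.14 (-0.31 to 0.03) for Zim1. In adults likewise no member was called by either tool, and 0 of 3 had an unadjusted p under 0.05, with 0.111% of all genes called (15 genes, and 77 with the replicate block). The adult log2 ratios were -0.04 (-0.16 to 0.07) for Peg3, -0.06 (-0.20 to 0.08) for Usp29 and -0.04 (-0.17 to 0.09) for Zim1.

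The lower allele of Zim1 gave a smaller share of its counts at P15 than at P5, and the change passed the test. It gave 6.35% ± 1.28 of counts at P5 (SD, n = 14), 3.34% ± 0.71 at P15 (n = 14) and 2.60% ± 0.69 in adults (n = 18). The parental effect of Zim1 changed by 0.98 ± 0.12 on the log2 scale from P5 to P15 (SE, adjusted p 2.66e-09), in a comparison in which 0.153% of all genes were called. All alternatives kept this call, with 0.95 to 0.99 in those that left out no single sample and 0.97 to 1.02 in those that did. The P5 and P15 shares overlapped through 1 P5 sample, sample 2 of F1r at 3.57%.

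In CPM, the lower Zim1 allele was at 7.10 ± 1.12 in F1i and 6.72 ± 1.43 in F1r at P5, and at 2.78 ± 0.85 in F1i and 2.95 ± 0.71 in F1r at P15. The higher allele was at 95.4 ± 4.4 in F1i and 110.0 ± 6.0 in F1r at P5, and at 78.5 ± 8.9 in F1i and 86.2 ± 9.7 in F1r at P15. In adults the lower allele was at 1.48 ± 0.43 in F1i and 1.41 ± 0.33 in F1r, and the higher allele at 53.5 ± 5.6 in F1i and 55.4 ± 5.3 in F1r. The mean of each allele was lower at each later age in both crosses.

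The parental effects of Peg3 and Usp29 were not called as changed between P5 and P15, at 0.68 ± 0.55 for Peg3 (adjusted p 0.994) and 1.68 ± 0.55 for Usp29 (adjusted p 0.291). Without sample 3 of P15 F1r and sample 6_2 of adult F1r, left out after the data were seen, they were 0.13 ± 0.32 for Peg3 and 1.30 ± 0.42 for Usp29, again not called. Between P15 and adults no member was called by edgeR or limma, although 3 of 3 had an unadjusted p under 0.05, and 0.129% of all genes were called. The changes, adult minus P15, were -1.36 ± 0.47 for Peg3 (adjusted p 0.768), -0.95 ± 0.35 for Usp29 (adjusted p 0.903) and 0.31 ± 0.14 for Zim1 (adjusted p 0.912). Without the same 2 samples the Peg3 change was -1.25 ± 0.29 and called (adjusted p 0.0417). The strain effect of no member was called as changed by edgeR or limma in either step, with 0 of 3 at an unadjusted p under 0.05 in both, against 18.7% and 15.5% of all genes.

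The parental difference was far smaller in the genes beside the domain. By the annotated gene order, the 5 measured genes before Zim1 were Zfp78, Zfp28, Gm16306, Gm20715 and Olfr1344, and the 5 after Usp29 were Zfp954, Zfp773, Zfp418, Zfp772 and Clcn4. Over all genes tested, 2.71% had a called parental effect at P5, 0.742% at P15 and 2.71% in adults. Of the neighbours with enough counts, 3 of 6 had one at P5, as had 1 of 5 at P15 and 2 of 8 in adults. The largest called effect among them was 0.55 at P5 (Zfp78), and 0.40 at P15 and 0.35 in adults (Gm20715), against 3.88 to 8.90 in size for the members.

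Gm20715, the second measured gene before Zim1, was called at all 3 ages in the direction of Zim1. Its CAST share was 63.1% ± 1.5 in F1i and 49.0% ± 2.8 in F1r at P5 (SD, n = 7 each), on means of 515 and 509 counts per sample. It was 62.5% ± 1.4 in F1i and 48.8% ± 1.3 in F1r at P15, and 62.6% ± 1.9 in F1i and 50.5% ± 0.9 in F1r in adults. The parental effect was 0.42 ± 0.04 at P5 (adjusted p 1.77e-13), 0.40 ± 0.03 at P15 (adjusted p 1.06e-17) and 0.35 ± 0.02 in adults (adjusted p 2.94e-16). Most of all genes called for the parental effect were also positive at P5 and in adults.

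Clcn4, a chloride-proton exchanger gene, was called at P5 and in adults, with 0.14 ± 0.03 (adjusted p 0.00324) and 0.11 ± 0.02 (adjusted p 0.00082), and had 0.11 ± 0.03 at P15 (adjusted p 0.128). Its CAST share at P5 was 54.7% ± 1.4 in F1i and 49.8% ± 2.6 in F1r. Zfp78, a zinc finger gene, was called at P5 alone, with 0.55 ± 0.15 (adjusted p 0.0262) on means of 26 and 23.4 counts. Zfp954, the nearest measured gene after Usp29, had -0.04 ± 0.13 at P5, 0.02 ± 0.13 at P15 and 0.21 ± 0.07 in adults, and was not called. The other domain genes Zim2, Zim3, Zfp264 and Peg3os were not analysed here. In the annotation the far end of Usp29 overlaps Zim3 on the other strand, and since the strand counted is not given in the sources used here, reads of the 2 genes may not be separated there.

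**Figure D4:**
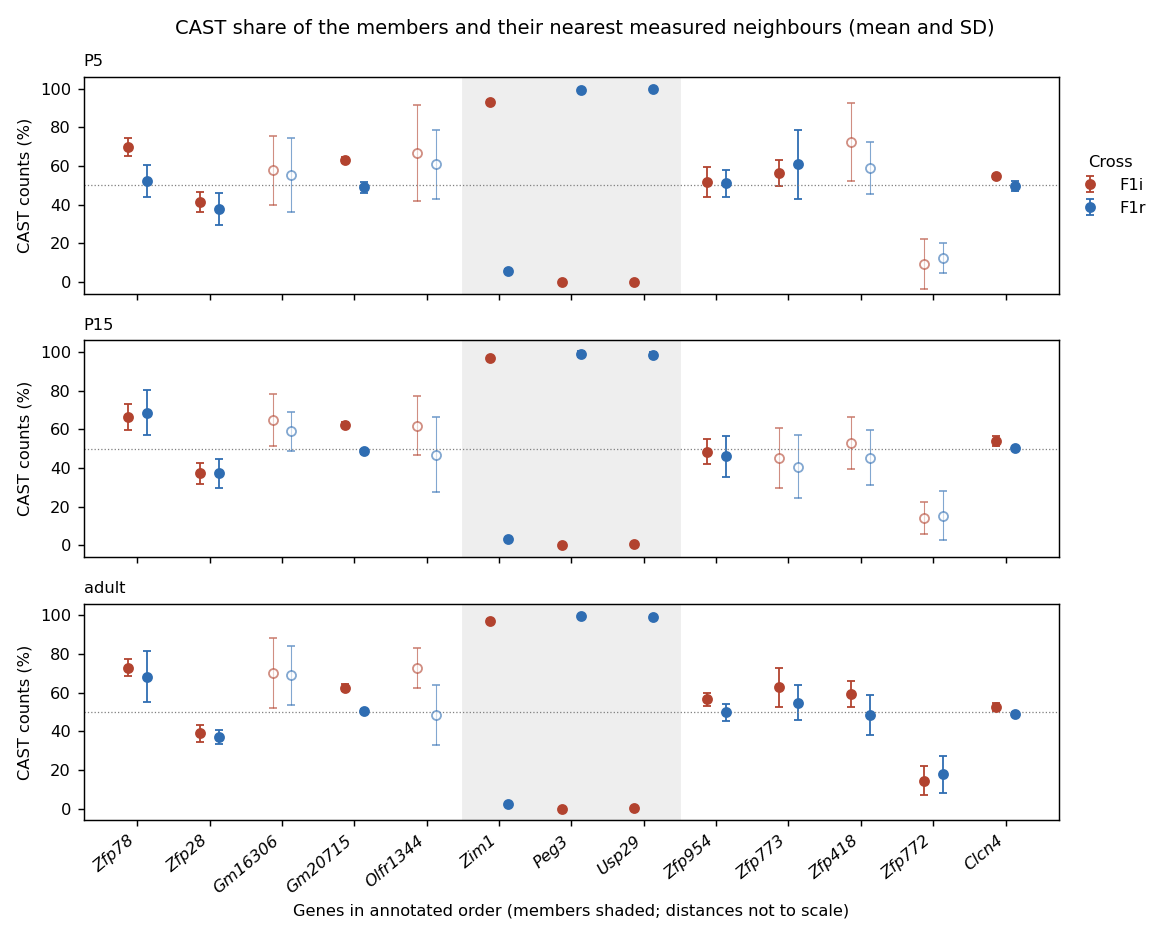
CAST share of counts (%, y axis; mean and SD over samples) for the 3 members, shaded, and the 5 measured genes on each side in annotated order (x axis, not to scale), at P5, P15 and in adults, F1i in red left of F1r in blue. Open circles are genes with too few counts to be tested. The crosses part widely for the members alone, and Gm20715 shows 63.1% in F1i and 49.0% in F1r at P5.

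Genes with the most similar pattern were sought over 12 values, the mean log2(CPM + 1) of each allele in each of the 6 groups, among 7932 genes with a mean of at least 100 counts at every age. The 12 values share libraries and ages, and the correlations are descriptions. In a strongly imprinted gene 1 allele is low in each group, so the direction of imprinting itself sets much of r. The closest to Peg3 was Usp29 (Pearson r = 0.9967), followed by Sgce, Gm38393, Plagl1 and Grb10 (0.996, 0.985, 0.984 and 0.982). The closest to Usp29 was Sgce (0.9989), followed by Peg3, Gm38393, Plagl1 and Peg10. Sgce encodes a sarcoglycan, Plagl1 a zinc finger protein and Grb10 a growth receptor adaptor, and all 3 are known as imprinted genes in the mouse.

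The closest to Zim1 was Calcr, the calcitonin receptor gene (0.9935), followed by Herc3, Asb4, H13 and Ago2 (0.985, 0.963, 0.955 and 0.951). Its summed level was 66.8 ± 6.8 CPM in F1i and 66.9 ± 4.1 CPM in F1r at P5 (SD), and 59.3 ± 7.3 CPM in F1i and 55.9 ± 8.1 CPM in F1r at P15. In adults it was at 29.6 ± 3.3 CPM in F1i and 25.8 ± 1.9 CPM in F1r. Zim1 and Peg3 had r = -0.958, and Zim1 and Usp29 r = -0.968.

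Genes that maintain imprints were read for the same age steps. Of 13 tested from the list of imprint maintenance and DNA methylation genes, 2 were called higher and 11 lower at P15 than at P5, with a median of -0.99, and 3 were called higher and 7 lower in adults than at P15, with a median of -0.40. Over all genes 83.4% and 74.7% were called in these steps. Zfp57, which binds and protects methylated imprint control regions, fell by 1.90 ± 0.11 from P5 to P15 (SE, adjusted p 4.63e-22). Trim28, its corepressor, fell by 1.21 ± 0.06 (adjusted p 1.53e-25), Dnmt1, the maintenance DNA methyltransferase, by 1.28 ± 0.04 (adjusted p 3.95e-31) and Dnmt3a, a de novo methyltransferase, by 1.48 ± 0.06 (adjusted p 1.05e-27). Zfp445, another zinc finger gene that protects imprints, rose by 0.34 ± 0.05 (adjusted p 1.27e-08). Between adults and P15, Tet1, which oxidises methylcytosine, fell by 1.76 ± 0.05 (adjusted p 2.79e-33).

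Of the 6 genes tested from a list of partners of Peg3 and Usp29 proteins, 1 was called higher and 2 lower at P15 than at P5, where 83.4% of all genes were called. Traf2, a signalling adaptor reported to bind Peg3, rose by 0.28 ± 0.09 (adjusted p 0.00276), while Bax, a cell death effector, fell by 0.51 ± 0.07 (adjusted p 5.22e-10) and Siah1b, a ubiquitin ligase, by 0.44 ± 0.18 (adjusted p 0.0168). In adults against P15, where 74.7% of all genes were called, 2 of 6 were called lower, Bax at -0.24 ± 0.06 and Traf2 at -0.18 ± 0.08 (adjusted p 0.00049 and 0.0315).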

How the data were processed

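RNA of 46 dorsal raphe samples was prepared with a column kit and sequenced as 50 bp single-end TruSeq reads, per the labels' protocols. The submitters' processing notes name Novoalign and the mm9 build. The authors deposited 3 tables of whole-number counts for each gene and allele, and all 92 columns were matched to a sample by its label. How reads were assigned to an allele or handled when matching several places, and which strand was counted, is not given in the sources used here. Symbols and gene order were taken from GENCODE on a build later than mm9 (14969 of 15499 identifiers named), promoter windows from RefSeq.

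Allele models used edgeR 4.0.16 (R 4.3.3) quasi-likelihood tests with a term for each sample, a minimum mean of 20 counts summed over alleles, and the sample's total as library size. Each age was fitted alone. Levels are CPM computed here from both alleles together, scaled by TMM over all genes of the 46 samples. The tests of levels used TMM after filterByExpr. P-values were adjusted over all genes tested by Benjamini-Hochberg and called at 0.05; SEs are Wald errors and 95% intervals rest on them. DESeq2 1.42.0, limma 3.58.1 (log2 ratio with 0.5 counts added), other scalings, no filter, a replicate block and left-out samples were alternatives. The fits were tested on simulated data with known changes. Shares were compared with exact permutation tests in Python 3.11.15. A share of 0 is given with the limit of 3 counts.

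Adult samples with the same second label number deviated together (correlations 0.504 to 0.791 for levels, 0.105 to 0.227 for allele ratios, over 3 numbers), so the replicate block applies there; where the pairing comes from is not stated.

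The text names the 3 members, the 5 nearest measured genes on each side, the 5 genes most alike over 12 group means and up to 4 genes of smallest p from each list; Osbpl5, Igf2, Rtl1, Zdbf2, Plagl1 and Zfp445 were named after their values were seen. Members, gene lists and markers were chosen with earlier results of these data known.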

Additional observations from a re-analysis of the deposited data

Results flagged for a closer look

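Each of 36 sets of values, the level and the share of the lower allele of the 3 genes in 6 groups, was searched for a sample that stands apart from the others by Dixon's criterion, and 7 were found. Chance flags about 1 in 20 such sets. Peg3 stood apart in sample 3 of P15 F1r, with 4.37% of counts from the lower allele against 0.215% to 1.03% in the other 6 samples, and in sample 6_2 of adult F1r, with 2.80% against 0.0878% to 0.882% in the other 8. Usp29 stood apart in the same 2 samples, with 4.74% at P15 against 0.323% to 1.49%, and with 2.59% in adults against 0.188% to 0.639%.

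The lower allele of Usp29 was also high in sample 3 of P5 F1i, at 0.648% against 0 to 0.229%, which is 3 of 463 counts. The level of Usp29 was low in sample 1 of P15 F1r, at 74.5 CPM against 108 to 123 CPM. The lower allele of Zim1 was low in sample 1 of P15 F1i, at 1.79% against 3.33% to 4.04%, which is 7 of 391 counts.

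The parental effect of Zim1 differed between ages, by 0.98 ± 0.12 on the log2 scale for P15 minus P5 (SE; adjusted p 2.66e-09 in edgeR's test of the difference).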

How the results depend on the processing

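The parental effects of the 3 genes kept their sign and call at every age under all alternatives run: scaling of each allele column, DESeq2, limma, no filter, the replicate block, adults summed over the first label number and leaving out each sample. So did the age effects and the Zim1 cross effect at P5. The number of all genes called moved more. At P5 the parental effect was called for 327 genes, for 120 with DESeq2 and 109 with limma; the positive calls made up 86.5%, 73.3% and 66.1%. In adults it was called for 344 genes, for 137 with DESeq2 and 90 with limma (83.4%, 67.9% and 57.8% positive). The adult cross effect was called for 15 genes, for 56 with DESeq2, 77 with the replicate block, 306 with adults summed over the first label number (86.7% and 58.5% positive in the first and the last) and 12 to 26 when single samples were left out, 26 both without sample 1_3 of F1i and without sample 6_1 of F1r. The change of the parental effect from P5 to P15 was called for 19 genes and for 35 with limma. Scaling each allele column by itself left the members' strain changes uncalled but moved the positive share of all calls to 33.6%, against 48.4%, for P15 minus P5 and to 66.2%, against 48.3%, for adult minus P15. The cause of these shifts was not tested.

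When single samples were left out, the difference of the lower allele's share, F1i minus F1r in percentage points, ranged for Peg3 from -0.434 to -0.22 at P5, from -0.963 to -0.27 at P15 and from -0.521 to -0.183 in adults. For Usp29 it ranged from -0.245 to -0.072 at P5, from -1.079 to -0.344 at P15, where 3 of 14 omissions brought p under 0.05, and from -0.373 to -0.073 in adults. For Zim1 it ranged from 0.808 to 1.45 at P5 and from -0.158 to 0.296 at P15. Effects near 0 that were not called changed sign: the cross effect ranged from -0.02 to 0.01 for Peg3 at P5 and from -0.03 to 0.12 for Usp29 at P15, the Zim1 strain effect at P15 from -0.10 to 0.02, and the Peg3 strain change from P15 to adults from -0.03 to 0.04. Without both sample 3 of P15 F1r and sample 6_2 of adult F1r, the strain change from P5 to P15 was 0.35 for Peg3 and 0.10 for Usp29, against -0.20 and -0.29, and from P15 to adults -0.11 for Peg3 against 0.00; none was called. For the models of all 46 samples, single samples were left out 6 times for changes of allele effects and 46 times for age effects.

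With the replicate block no member's call changed. Exchanged within it, an alternative added after seeing the data, the adult shares of the lower allele gave exact permutation p-values of 0.0273 for Peg3, 0.264 for Usp29 and 0.488 for Zim1; the adult Usp29 strain effect was -0.42 (adjusted p 0.0507). At P5 and P15 the labels of the 2 crosses share 1 number. Of the level correlations, 1 of 7 at P5 and 2 of 7 at P15 were over 0.1, and 3 of 14 samples correlated best with their own number at each age. At P15 the 2 were 0.765 for number 1 and 0.72 for number 6, and the lowest was -0.426. Counts limit the lower allele of Usp29, with 0 to 5 counts per sample at P5.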
